A study of Homo sapiens with 9 samples.

Results

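The genes described here are 34 genes of cholesterol and fatty acid synthesis, taken by symbol from a table of 25593 loci. They fall into 3 groups by role: 16 sterol pathway enzymes, 8 regulators and sterol transport genes, and 10 fatty acid and lipid enzymes. They were taken by name, with no cut on a measured value, but with earlier results of these data known. All 34 were quantified in every library, and all 34 passed the filter on low values that left 13216 genes to test.

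The 9 RNA samples came from cultures of neural crest-like cells that had been made from human embryonic stem cells of the established line H9. Cells were differentiated for 6 days with 10 µM SB431542, an inhibitor of the Nodal, Activin and TGF-β type I receptors, in a chemically defined medium. Per the growth protocol, cells with high CD271 and without CD73 were sorted, although the cell type label gives both markers as positive, and were expanded on fibronectin in 5% O2 and 5% CO2. Group F was expanded in that medium with FGF2 at 5 to 10 ng/ml, group FSB with the same FGF2 plus SB431542 at 3 to 5 µM, and group F_FSB was kept in FSB for 4 passages and then in F for 3 more. Each group had 3 cultures, which the design text calls biological replicates, harvested at passage 6 to 7. All groups shared the same cell line, the same sort and the same base medium. That medium held 2% (v/v) lipid concentrate, 5 mg/ml fatty acid-free albumin, 20 µg/ml insulin and 100 µg/ml holo-transferrin, so every culture had lipid and insulin supplied.

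Cholesterol is built from acetyl-CoA. The mevalonate pathway turns acetyl-CoA into isoprenoid units, which are joined to squalene, closed to lanosterol, and trimmed and reduced to cholesterol. Fatty acid synthesis starts from the same cytosolic acetyl-CoA and adds steps that lengthen and desaturate the chain. Both pathways are controlled by the SREBP transcription factors, membrane proteins that SCAP escorts from the endoplasmic reticulum to the Golgi for cleavage when sterols are low, and that INSIG proteins hold back when sterols are high. SREBP2, from SREBF2, acts mostly on sterol genes, and SREBP1, from SREBF1, mostly on fatty acid genes. In dividing cells both pathways provide membrane lipid.

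Values are FPKM, fragment numbers scaled by gene model length and by the mapped total of each library. Means are given ± SD with n = 3 cultures. Changes are differences of mean log2(FPKM + 1), a scale on which weakly expressed genes appear to change less than they did. A gene is said to have risen or fallen when its adjusted p in limma was below 0.05, with Benjamini-Hochberg adjustment over all 13216 genes. The files hold no fragment counts, so the depth behind each value is unknown. The 95% interval that Cufflinks gave for a member had a median half-width of 3.37% to 6.43% of the value across libraries and at most 26.9%, for HSD17B7. On the map, 13 of the 34 genes overlap another locus, and for 9 of them that locus exceeded 1 FPKM in a library. FPKM sums per library ran from 361026 to 395596 in 8 libraries and reached 506146 in F_FSB replicate 2, where the microRNA gene MIR4461 held 111389 FPKM. Among crest markers, the F, FSB and F_FSB means were 20.0, 120.0 and 4.89 FPKM for NGFR (CD271) and 15.1, 60.7 and 21.0 FPKM for TFAP2A, whereas SOX10 and FOXD3 averaged below 1 FPKM in every group. Of 9 crest markers tested, 4 rose in FSB (NGFR, TFAP2A, ETS1 and TWIST1) and MSX2 fell, from 50.8 to 3.85 FPKM. Of all genes tested, 28.5% were called higher and 13.4% lower in this comparison. SOX9 (32.5, 34.1 and 19.5 FPKM) and SNAI2 (63.1, 68.6 and 46.3 FPKM) were among the 4 that did not pass between FSB and F. Summed over 12 crest markers, FPKM ran from 214 to 275 in F, 439 to 484 in FSB and 159 to 190.2 in F_FSB. Summed over 9 mesenchymal stromal markers, it ran from 8036 to 8266, 1422 to 1463 and 7238 to 9313, most of it from COL1A1, COL1A2 and COL6A1. In FSB 7 of the 9 fell, beside 13.4% of all genes tested, and THY1 (24.6, 29.3 and 27.4 FPKM) and PDGFRB (82.5, 91.1 and 94.1 FPKM) did not pass. All 8 hepatocyte and endoderm markers, all 6 adipocyte markers and all 5 steroidogenic markers averaged below 1 FPKM, with sums of at most 0.397, 1.59 and 1.04 FPKM in any library. Summed FPKM of 4 endothelial markers ran from 0.511 to 1.93 in F, 4.97 to 5.65 in FSB and 0.412 to 2.38 in F_FSB. CDH5 (0.143, 3.43 and 0.208 FPKM) and TIE1 (0.226, 1.62 and 0.162 FPKM) were called higher in FSB. Both passed the filter on low values only through FSB, so these calls add no support. PECAM1 (0.649, 0.233 and 0.694 FPKM) and VWF (0.0963, 0.0349 and 0.0805 FPKM) were not tested and had lower means in FSB. Over 6 pluripotency markers the summed FPKM ran from 1.48 to 7.82, 8.14 to 18.97 and 1.59 to 4.86, mostly from DPPA4 and ZFP42. POU5F1, NANOG and SOX2 averaged below 1 FPKM. Sums of epithelial, neuron and Schwann markers overlapped between F and FSB, and the 4 skeletal muscle markers summed to 1.76 to 8.05 FPKM in F and 0.839 to 1.73 in FSB. In these bulk samples, fewer cells of a type and less RNA per cell cannot be told apart.

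Cells held with the receptor inhibitor had higher FPKM of nearly every enzyme listed here than cells grown in FGF2 alone. Between FSB and F, 28 of the 34 genes rose, 1 fell (PMVK) and 5 did not pass. Over all genes tested, 41.9% were called in this comparison, 28.5% higher and 13.4% lower. The median log2 change was 1.24 for the sterol enzymes, 0.56 for the regulators and transport genes and 1.20 for the fatty acid enzymes, beside 0.14 for all genes tested. The 3 FSB libraries did not overlap the 3 F libraries for 30 of the 34 genes, as was the case for 57.9% of all genes tested. Scaling the libraries by median ratios moved the median of all genes from 0.138 to 0.002 and the share of calls that were higher from 68.0% to 49.6%, and left 25 members higher and 2 lower. Relative to the median of all genes, the sterol enzymes were higher by 1.10, the regulators by 0.42 and the fatty acid enzymes by 1.06 on the log2 scale.

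**Figure D1:**
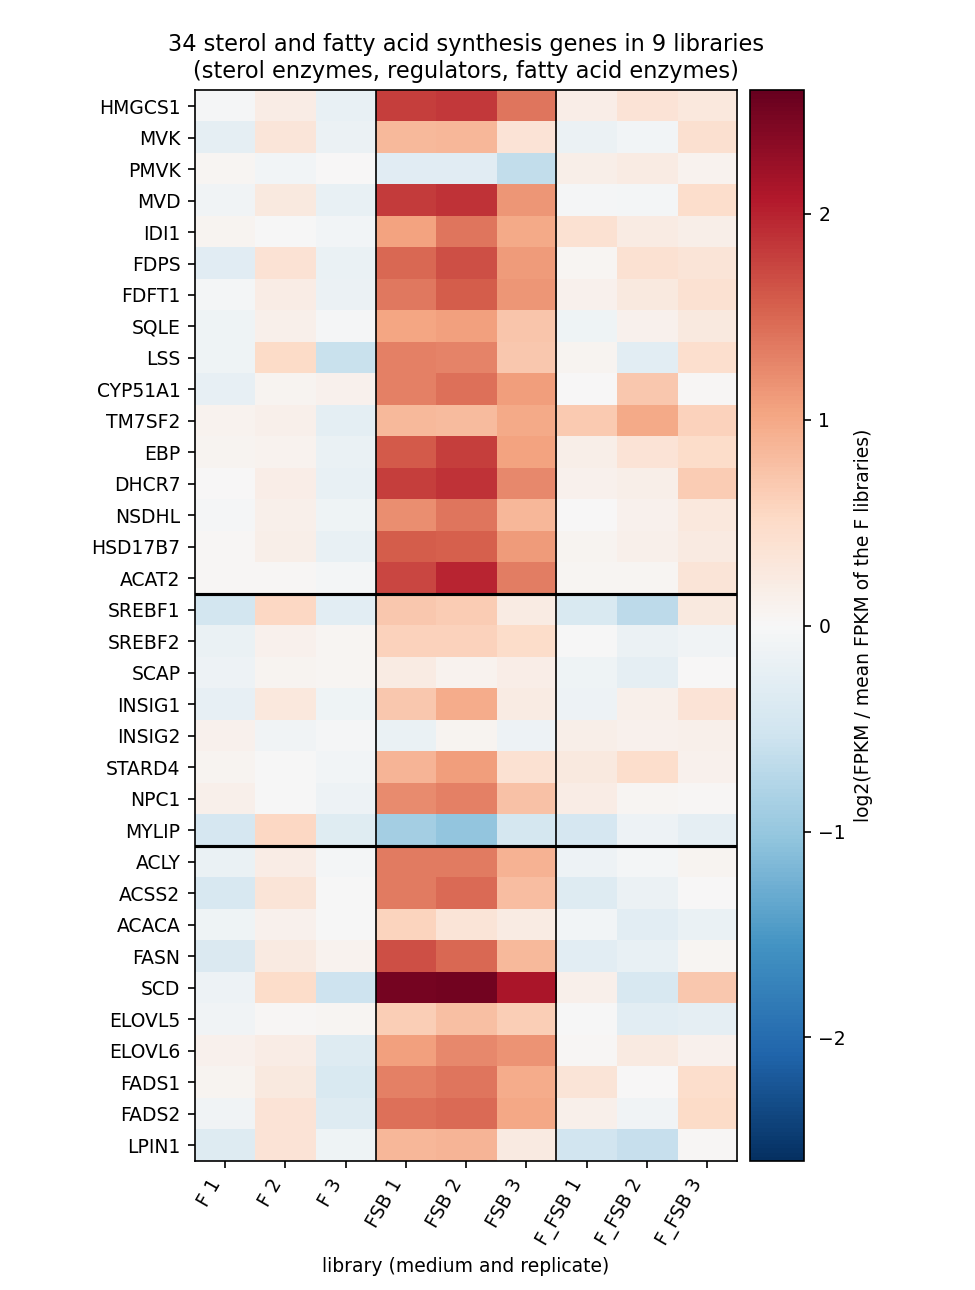
Heat map of 34 genes (rows, in the order sterol enzymes, regulators and transport, fatty acid enzymes) in 9 libraries (columns), coloured by log2 of FPKM over the mean of the 3 F libraries. The FSB columns are red for the 28 genes that rose, and PMVK and MYLIP are blue there.

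Levels of most of these enzymes were lower again after the inhibitor was taken away. Between F_FSB and FSB, 28 of the 34 fell, 1 rose (PMVK) and 5 did not pass, beside 41.8% of all genes tested called, 13.7% higher and 28.2% lower. Libraries did not overlap for 29 of the 34, beside 55.8% of all genes. The median log2 change was -1.06 for the sterol enzymes, -0.50 for the regulators and transport genes and -1.07 for the fatty acid enzymes, beside -0.13 for all genes. This comparison and the one of FSB with F share the FSB libraries, so their changes are not independent of each other. With median-ratio scaling 24 members fell and 2 rose.

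**Figure D2:**
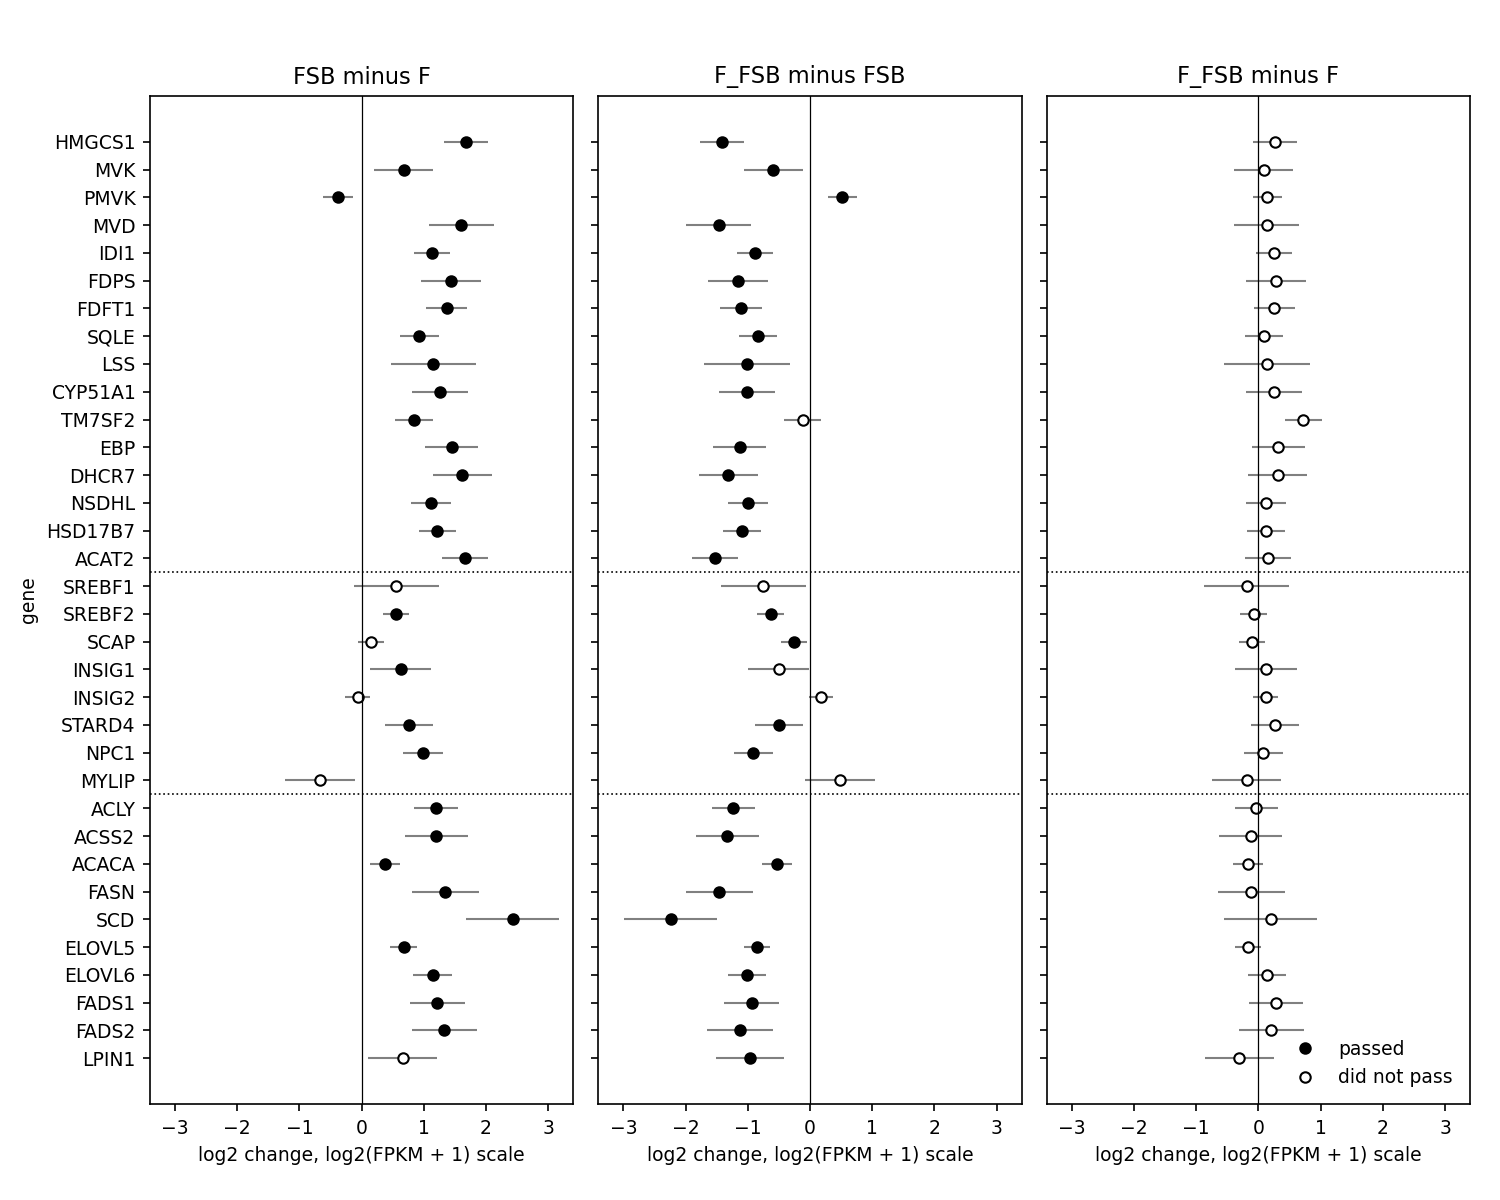
Log2 change of each of the 34 genes on the log2(FPKM + 1) scale, with its 95% confidence interval from limma, with a panel for FSB minus F, one for F_FSB minus FSB and one for F_FSB minus F. Filled points passed an adjusted p of 0.05: 29 genes in each of the first 2 panels and 0 in the third.

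The first steps of the sterol pathway were among the most changed. HMGCS1 (chr5:43289493-43313595, GRCh37), the synthase that makes HMG-CoA, had 152, 177 and 135 FPKM across the F cultures, 537, 556 and 408 in FSB, and 173, 199 and 187 in F_FSB. The 3 FSB cultures lay far above the 6 others, with no overlap. The mean was 3.23-fold that of F in the FSB cultures (log2 change 1.68, SE 0.15, adjusted p = 0.000233), and it fell again on withdrawal (log2 change -1.41, SE 0.15, adjusted p = 0.000481). By rank of its FPKM among the 13216 genes, HMGCS1 stood at a median of 332 in F, 76 in FSB and 294 in F_FSB. ACAT2 (chr6:160182989-160200087), the cytosolic thiolase of the step before, had 81.3, 80.4 and 76.01 FPKM across the F cultures, 263, 312 and 201 in FSB, and 82.6, 82.1 and 100.4 in F_FSB. It rose 3.26-fold (log2 change 1.67, SE 0.16, adjusted p = 0.000288) and fell on withdrawal (log2 change -1.52, SE 0.16, adjusted p = 0.00042). Its 3′ end overlaps TCP1 on the map by 558 bases, and TCP1 stayed between 55.2 and 89.5 FPKM in all 9 libraries.

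The kinases of the next steps changed less, and PMVK went the other way. PMVK (chr1:154897208-154909484), the phosphomevalonate kinase, was the one enzyme that was lower in FSB, with 14.2, 12.9 and 13.8 FPKM across the F cultures, 11.05, 11.2 and 8.696 in FSB, and 15.1, 15.9 and 14.4 in F_FSB. Its FSB cultures lay below all 6 others. PMVK fell between F and FSB (log2 change -0.38, SE 0.10, adjusted p = 0.0189) and rose on withdrawal (log2 change 0.52, SE 0.10, adjusted p = 0.00485). The fall did not pass without F replicate 1 (adjusted p = 0.0548), without F replicate 3 (adjusted p = 0.0514) or with every library scaled to the same FPKM sum (adjusted p = 0.0516). MVK, the mevalonate kinase just before it, was higher in FSB by a log2 change of 0.68, adjusted p = 0.0307. Its F_FSB replicate 3, at 22.8 FPKM, was above its FSB replicate 3, at 21.9 FPKM. The rise of MVK did not pass without F replicate 1, F replicate 3, FSB replicate 1 or FSB replicate 2 (adjusted p = 0.0855 to 0.0999). Its fall on withdrawal (-0.59, adjusted p = 0.0482) did not pass when F replicate 1 or 3, or replicate 1 or 2 of FSB or of F_FSB, was left out (adjusted p = 0.0532 to 0.144). With median-ratio scaling neither change of MVK passed (0.53, adjusted p = 0.103, and -0.44, adjusted p = 0.158).

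MVD, IDI1 and FDPS complete the isoprenoid part. MVD (chr16:88718348-88729495), the decarboxylase that makes isopentenyl diphosphate, had 36.1, 46.2 and 33.6 FPKM across the F cultures, 136, 142 and 86.05 in FSB, and 37.8, 37.3 and 53.2 in F_FSB. The lowest FSB culture, replicate 3, was still above the highest of the others. MVD rose 3.13-fold (log2 change 1.60, SE 0.23, adjusted p = 0.00131) and fell on withdrawal (log2 change -1.47, SE 0.23, adjusted p = 0.00181). The isomerase IDI1 went from 64.04 ± 3.31 to 142 ± 22.9 FPKM (log2 change 1.13, adjusted p = 0.000504), and the farnesyl diphosphate synthase FDPS from 92.3 ± 23.9 to 251 ± 48.8 FPKM (log2 change 1.44, adjusted p = 0.00151). A copy of the latter, FDPSL2A, was listed at 2.89 to 4.29 FPKM in F and 6.82 to 10.3 in FSB, and fragments of FDPS could be split with it.

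The enzymes that form squalene and lanosterol rose as well. FDFT1, the squalene synthase, went from 107 ± 13.4 to 277 ± 42.1 FPKM (log2 change 1.37, adjusted p = 0.000423), and SQLE, the squalene epoxidase, from 75.8 ± 6.401 to 146 ± 19.0 FPKM (log2 change 0.93, adjusted p = 0.0014). LSS, which closes the rings to lanosterol, went from 69.4 ± 26.1 to 152 ± 33.6 FPKM (log2 change 1.16, adjusted p = 0.0166), with F values spread from 46.5 to 97.8 FPKM. The rise of LSS did not pass without FSB replicate 1 (adjusted p = 0.0593) or FSB replicate 2 (adjusted p = 0.0592). Its fall on withdrawal (-1.01, adjusted p = 0.0271) did not pass without either of these or without F_FSB replicate 1 or 2 (adjusted p = 0.0622 to 0.0887). The fall of LSS also did not pass with median-ratio scaling (-0.86, adjusted p = 0.0663).

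Of the enzymes that turn lanosterol into cholesterol, all 6 members rose in FSB and 5 of 6 fell on withdrawal. DHCR7 (chr11:71145457-71159477), the reductase of a last step, had 35.1, 39.5 and 30.5 FPKM across the F cultures, 123, 129 and 82.8 in FSB, and 37.7, 39.1 and 55.3 in F_FSB. FSB again held the 3 highest values. DHCR7 rose 3.18-fold (log2 change 1.62, SE 0.21, adjusted p = 0.000884) and fell on withdrawal (log2 change -1.31, SE 0.21, adjusted p = 0.00195). The sterol isomerase EBP rose 2.85-fold, the demethylase CYP51A1 2.43-fold, NSDHL 2.25-fold and HSD17B7 2.68-fold, the last 2 both enzymes of sterol demethylation (adjusted p = 0.000432 to 0.00183). HSD17B7 had the lowest level of the sterol enzymes in F, going from 3.905 ± 0.467 to 10.5 ± 1.75 FPKM in FSB, and its pseudogene HSD17B7P2, at 0.997 to 1.10 FPKM in F and 2.05 to 2.99 in FSB, could share fragments with it.

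TM7SF2 (chr11:64879341-64883707), one of the pathway's sterol reductases, had values after withdrawal near those of FSB, and was singled out after its values were seen. It had 13.7, 14.1 and 10.8 FPKM across the F cultures, 22.9, 22.7 and 25.5 in FSB, and 20.6, 25.6 and 19.5 in F_FSB. It rose in FSB (log2 change 0.84, SE 0.13, adjusted p = 0.00195). F_FSB overlapped FSB and did not overlap F. The change on withdrawal did not pass (log2 change -0.12, SE 0.13, adjusted p = 0.495). Between F_FSB and F the log2 change was 0.72, with a 95% confidence interval of 0.42 to 1.02, and it did not pass either (adjusted p = 0.304).

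**Figure D3:**
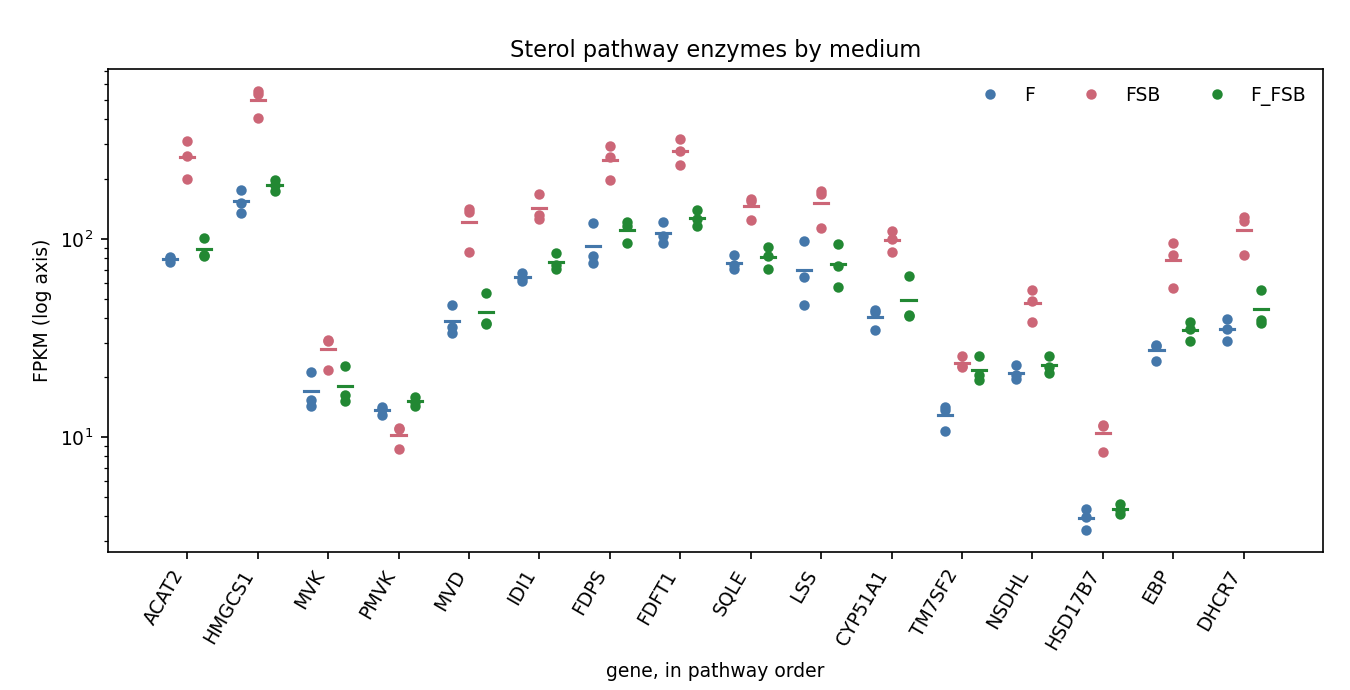
FPKM of the 16 sterol pathway enzymes on a log axis, in pathway order from left to right. Each point is a culture and each bar a group mean, with F in blue, FSB in red and F_FSB in green. FSB points lie above F points for all enzymes except PMVK, and the F_FSB points of TM7SF2 overlap its FSB points.

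The genes that sense and move sterols had smaller changes than the enzymes. Of the 8, 4 rose in FSB (SREBF2, INSIG1, STARD4 and NPC1), beside 28.5% of all genes tested. On withdrawal 4 fell (SREBF2, SCAP, STARD4 and NPC1), beside 28.2% of all genes tested. With median-ratio scaling 3 rose and 1 fell in FSB, and 1 rose and 2 fell on withdrawal. NPC1 (chr18:21111463-21166581), which exports cholesterol from lysosomes, had 6.15, 5.63 and 5.17 FPKM across the F cultures, 13.3, 14.04 and 9.63 in FSB, and 6.46, 5.81 and 5.79 in F_FSB. FSB lay above both other groups in every culture. NPC1 rose 2.18-fold (log2 change 0.99, SE 0.14, adjusted p = 0.00121) and fell on withdrawal (log2 change -0.91, SE 0.14, adjusted p = 0.00161). It overlaps the neighbouring C18orf8 by 284 bases on the map, and that gene was at 5.48 to 8.33 FPKM across all 9 libraries. SREBF2 (chr22:42229106-42302375), the gene of SREBP2, had 59.6, 72.7 and 69.1 FPKM across the F cultures, 102, 101 and 94.1 in FSB, and 66.4, 60.7 and 63.1 in F_FSB. The FSB cultures were close together and above the 6 others. It rose 1.47-fold (log2 change 0.56, SE 0.09, adjusted p = 0.00257) and fell on withdrawal (log2 change -0.63, SE 0.09, adjusted p = 0.00142).

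STARD4 (chr5:110834022-110848157), a carrier that moves cholesterol between membranes, had 20.3, 19.4 and 18.6 FPKM across the F cultures, 35.9, 41.3 and 25.5 in FSB, and 23.2, 26.7 and 20.9 in F_FSB. FSB replicate 3 was below F_FSB replicate 2. STARD4 rose in FSB (log2 change 0.76, SE 0.17, adjusted p = 0.00838). Its fall on withdrawal (-0.50, adjusted p = 0.0427) did not pass without any one of F replicates 1, 2 and 3, FSB replicates 1 and 2, or F_FSB replicates 1 and 3 (adjusted p = 0.0573 to 0.134). The fall of STARD4 also did not pass with median-ratio scaling (-0.35, adjusted p = 0.142). INSIG1 (chr7:155089486-155101945), which holds SCAP in the endoplasmic reticulum, had 45.8, 63.5 and 49.02 FPKM across the F cultures, 85.6, 103 and 60.9 in FSB, and 47.8, 57.6 and 67.3 in F_FSB. The groups overlapped, since FSB replicate 3 was below F replicate 2. The rise of INSIG1 (log2 change 0.63, SE 0.22, adjusted p = 0.0466) did not pass when F replicate 1 or 3, replicate 1 or 2 of FSB, or replicate 2 of F_FSB was left out (adjusted p = 0.0586 to 0.149). With median-ratio scaling the rise of INSIG1 did not pass either (0.47, adjusted p = 0.143). On withdrawal its change of -0.50 did not pass (adjusted p = 0.0935), and without FSB replicate 3 it did (adjusted p = 0.0263).

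SCAP (chr3:47455184-47517445), the escort protein, had 16.1, 18.5 and 18.4 FPKM across the F cultures, 20.4, 18.9 and 19.96 in FSB, and 16.4, 14.9 and 17.9 in F_FSB. The spread was small, and the difference between FSB and F did not pass (log2 change 0.16, SE 0.09, adjusted p = 0.192). The fall on withdrawal was the smallest change called among the members (log2 change -0.26, SE 0.09, adjusted p = 0.0487), and it did not pass without F replicate 2 or 3, any one FSB replicate, or F_FSB replicate 1 or 2 (adjusted p = 0.0598 to 0.133). With median-ratio scaling it was -0.11 (adjusted p = 0.434).

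SREBF1, INSIG2 and MYLIP passed in none of the 3 comparisons. SREBF1 (chr17:17714663-17740325), the gene of SREBP1, had 11.2, 22.9 and 12.9 FPKM across the F cultures, 25.5, 24.7 and 18.1 in FSB, and 11.9, 9.801 and 18.6 in F_FSB. The groups overlapped in both comparisons, with F replicate 2 and F_FSB replicate 3 high (0.56, adjusted p = 0.165 for FSB minus F; -0.75, adjusted p = 0.0753 for F_FSB minus FSB). Without F replicate 2 both changes passed (adjusted p = 0.0435 and 0.0377), and without F_FSB replicate 3 the second did (adjusted p = 0.035). SREBF1 overlaps RAI1 by 105 bases, and RAI1 was at 8.61 to 11.9 FPKM in F and 16.1 to 18.3 in FSB. MYLIP (chr6:16129317-16148479), a ubiquitin ligase that marks lipoprotein receptors for breakdown, had 12.3, 24.04 and 13.4 FPKM across the F cultures, 9.003, 8.12 and 12.1 in FSB, and 12.2, 15.1 and 14.2 in F_FSB. Every FSB value was below every F value, with F replicate 2 far above the other F cultures, but the change did not pass (log2 change -0.67, SE 0.24, adjusted p = 0.0574). It passed without F replicate 1 (adjusted p = 0.0367), without FSB replicate 3 (adjusted p = 0.0481) and with median-ratio scaling (adjusted p = 0.0336). On withdrawal the change was 0.48, adjusted p = 0.151, and it passed without F replicate 2 (adjusted p = 0.0386). INSIG2 (chr2:118846050-118867597), the second INSIG gene, had 6.66, 5.79 and 6.06 FPKM across the F cultures, 5.49, 6.48 and 5.63 in FSB, and 6.85, 6.62 and 6.79 in F_FSB. Its changes were -0.06, adjusted p = 0.583 in FSB and 0.18, adjusted p = 0.129 on withdrawal, and the latter passed with median-ratio scaling (0.31, adjusted p = 0.0214).

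**Figure D4:**
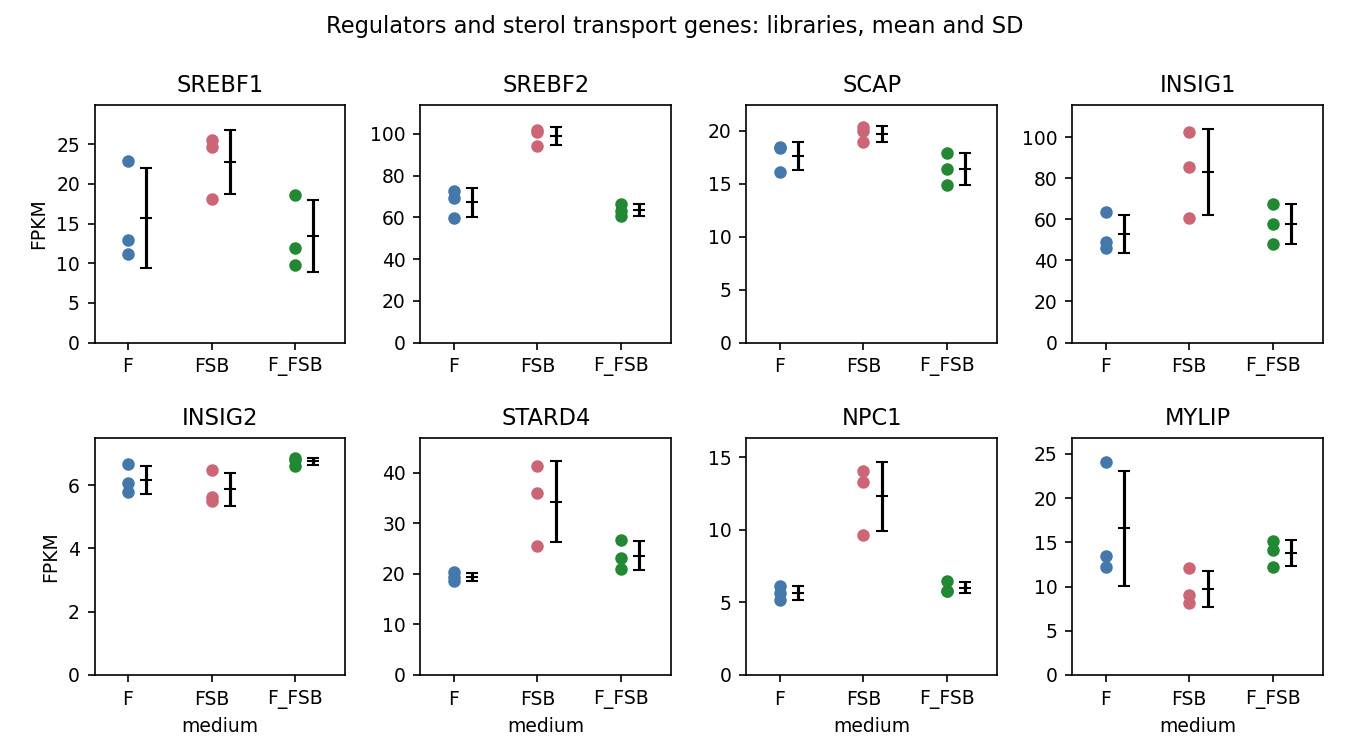
FPKM of the 8 regulators and sterol transport genes in each of 9 cultures (points), with the group mean and SD (bars) beside them and each axis starting at 0. SREBF2, NPC1 and, by a narrow gap, SCAP have every FSB value above every value of both other media. INSIG2 is nearly level, and each MYLIP value in FSB lies below each in F and in F_FSB.

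Of the 10 fatty acid and lipid enzyme genes, 9 rose with the sterol enzymes, and the desaturase gene SCD rose most of all 34 genes. SCD (chr10:102106772-102124588), the stearoyl-CoA desaturase that makes oleate, had 131, 202 and 99.7 FPKM across the F cultures, 813, 823 and 629.6 in FSB, and 158, 108 and 233 in F_FSB. Every FSB culture was far above every culture of the other media. SCD rose 5.24-fold (log2 change 2.43, SE 0.33, adjusted p = 0.00107) and fell on withdrawal (log2 change -2.23, SE 0.33, adjusted p = 0.00142). Its median rank among 13216 genes was 387 in F, 36 in FSB and 320 in F_FSB. A separate locus, LOC100652751, lies within SCD at its 3′ part (chr10:102121516-102122478). It was listed at 86.8, 147 and 54.8 FPKM across the F cultures, 555, 548 and 403 in FSB, and 115, 188 and 162 in F_FSB, so fragments of SCD could be split between the 2 loci. F_FSB replicate 2 was the only library in which LOC100652751 was above SCD, so any split could differ between libraries. The part of this in the fatty acid level of that library was not tested.

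The enzymes that supply and join acetyl units rose too. ACLY (chr17:40023179-40075272), which cleaves citrate to acetyl-CoA, had 73.6, 95.6 and 80.6 FPKM across the F cultures, 212, 213 and 155 in FSB, and 75.7, 80.2 and 87.4 in F_FSB. ACSS2 (chr20:33462766-33515769), which makes acetyl-CoA from acetate, had 19.3, 32.5 and 25.9 FPKM across the F cultures, 65.8, 71.5 and 45.2 in FSB, and 20.4, 23.3 and 26.0 in F_FSB. In both, the 3 FSB cultures were the 3 highest. ACLY rose 2.32-fold (log2 change 1.20, SE 0.15, adjusted p = 0.000854) and fell on withdrawal (log2 change -1.23, SE 0.15, adjusted p = 0.000781). ACSS2 rose 2.35-fold (log2 change 1.20, SE 0.22, adjusted p = 0.00392) and fell likewise (log2 change -1.33, SE 0.22, adjusted p = 0.00245). FASN (chr17:80036214-80056106), the fatty acid synthase, had 38.7, 59.01 and 53.4 FPKM across the F cultures, 162, 141 and 90.5 in FSB, and 41.5, 44.2 and 51.9 in F_FSB. Its FSB replicate 3 was well under the other 2 FSB cultures but above all of F and F_FSB. FASN rose 2.603-fold (log2 change 1.34, SE 0.23, adjusted p = 0.00315) and fell on withdrawal (log2 change -1.46, SE 0.23, adjusted p = 0.00209). ACACA, the acetyl-CoA carboxylase that makes malonyl-CoA for FASN, had the smallest rise of the 9, from 26.5 ± 1.89 to 34.7 ± 4.37 FPKM (log2 change 0.37, adjusted p = 0.0237). That rise did not pass when any one of F replicates 1 and 3 and FSB replicates 1 and 2 was left out (adjusted p = 0.0564 to 0.0726), nor with median-ratio scaling (0.22, adjusted p = 0.184). Its fall on withdrawal passed (-0.53, adjusted p = 0.00511).

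Genes for desaturation and elongation of longer chains followed. FADS2 (chr11:61595713-61634825), the first desaturase of polyunsaturated fatty acids, had 175, 239 and 147 FPKM across the F cultures, 507, 518 and 376 in FSB, and 206, 175 and 263 in F_FSB. FADS1 (chr11:61567097-61584529), its neighbour on the chromosome and the next desaturase, had 39.8, 44.98 and 28.9 FPKM across the F cultures, 93.4, 99.2 and 73.7 in FSB, and 48.1, 38.02 and 51.8 in F_FSB. For both genes the lowest FSB culture was replicate 3, and it was above every F and F_FSB culture. FADS2 rose 2.498-fold (log2 change 1.33, SE 0.23, adjusted p = 0.00295) and FADS1 2.34-fold (log2 change 1.22, SE 0.19, adjusted p = 0.00204). On withdrawal both fell (-1.12, adjusted p = 0.00569 for FADS2; -0.94, adjusted p = 0.00591 for FADS1). The elongase ELOVL6 went from 23.03 ± 4.28 to 51.6 ± 3.38 FPKM (log2 change 1.15, adjusted p = 0.000631) and ELOVL5 from 52.5 ± 2.64 to 84.5 ± 4.53 FPKM (log2 change 0.68, adjusted p = 0.00113). LPIN1, a phosphatidate phosphatase of glycerolipid synthesis, was at 17.8 ± 4.37 FPKM in F against 28.8 ± 6.71 FPKM in FSB, a change that did not pass (log2 change 0.66, adjusted p = 0.0566). It passed without F replicate 2, FSB replicate 3 or F_FSB replicate 3 (adjusted p = 0.0376, 0.0266 and 0.0432). LPIN1 fell on withdrawal (log2 change -0.97, adjusted p = 0.0133), but not without FSB replicate 1 (adjusted p = 0.0508) or FSB replicate 2 (adjusted p = 0.0518).

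Since these genes moved together, the 250 bases before their start sites were read from RefSeq promoter tables (GRCh38.p14, a later build than that of the expression files). The tables hold 30 of the 34 genes. NF-Y, which works beside SREBP at many promoters, binds CCAAT, Sp1 binds GGGCGG, and TCACNCCAC spells the core of a sterol response element. Motifs were searched on both strands over all listed starts of a gene, and overlapping matches of different motifs were each counted. CCAAT was found in 20 of 30 members (66.7%), 11 of 13 sterol enzymes (84.6%), 4 of 8 regulators (50%) and 5 of 9 fatty acid enzymes (55.6%), beside 37.0% of 27305 genes in the table and 42.0% of the 8941 tested genes matched by symbol. GGGCGG was found in 28 of 30 (93.3%), beside 46.2% of all and 75.6% of tested genes. TCACNCCAC was found in 1 of 30 (3.33%), beside 1.09% and 1.23%. The E-box CACGTG was found in 3 of 30 (10.0%), beside 7.73% and 11.1%. A match is a run of letters in this window and not a measured site.

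The windows of 6 genes are printed 5′ to 3′ on the gene's strand, with CCAAT (or ATTGG on this strand) and the sterol element in capitals. SREBF2 (GRCh38.p14 chr22:41832855-41833104, plus strand) is the one of the 30 members searched with a TCACNCCAC match, at -133 from the start. It also has a CCAAT match at -106. Looser spellings of the sterol element, and sites outside the window, were not searched.
SREBF2: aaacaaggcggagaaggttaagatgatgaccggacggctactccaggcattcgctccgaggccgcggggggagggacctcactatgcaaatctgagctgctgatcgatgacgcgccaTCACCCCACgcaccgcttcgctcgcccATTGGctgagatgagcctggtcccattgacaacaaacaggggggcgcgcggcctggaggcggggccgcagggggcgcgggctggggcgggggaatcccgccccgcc
HMGCS1 (chr5:43313413-43313662, minus strand) and MVD (chr16:88663092-88663341, minus strand) are strongly changed sterol enzymes with 2 and 3 CCAAT matches.
HMGCS1: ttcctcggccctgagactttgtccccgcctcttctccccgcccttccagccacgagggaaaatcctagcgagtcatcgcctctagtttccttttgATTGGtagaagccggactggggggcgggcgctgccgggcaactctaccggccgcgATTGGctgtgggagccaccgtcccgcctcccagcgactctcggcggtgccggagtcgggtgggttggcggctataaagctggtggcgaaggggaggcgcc
MVD: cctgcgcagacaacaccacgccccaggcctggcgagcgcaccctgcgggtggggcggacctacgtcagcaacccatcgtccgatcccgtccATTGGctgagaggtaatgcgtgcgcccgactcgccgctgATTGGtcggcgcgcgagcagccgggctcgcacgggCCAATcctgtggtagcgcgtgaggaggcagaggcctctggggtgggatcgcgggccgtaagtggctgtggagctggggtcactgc
SCD (chr10:100346983-100347232, plus strand), the gene that rose most, has 2 CCAAT matches.
SCD: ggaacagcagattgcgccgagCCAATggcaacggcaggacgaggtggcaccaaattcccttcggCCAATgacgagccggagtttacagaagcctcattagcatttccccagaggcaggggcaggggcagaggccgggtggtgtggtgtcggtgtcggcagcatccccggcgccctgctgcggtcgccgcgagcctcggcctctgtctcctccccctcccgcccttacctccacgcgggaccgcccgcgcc
FADS2 (chr11:61815953-61816202, plus strand) rose and has no match to either, and PMVK (chr1:154936720-154936969, minus strand), the enzyme that fell, has none.
FADS2: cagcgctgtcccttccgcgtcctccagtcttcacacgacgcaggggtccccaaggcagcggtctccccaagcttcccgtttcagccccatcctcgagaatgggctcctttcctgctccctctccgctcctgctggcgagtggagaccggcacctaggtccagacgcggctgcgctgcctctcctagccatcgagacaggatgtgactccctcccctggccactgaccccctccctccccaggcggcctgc
PMVK: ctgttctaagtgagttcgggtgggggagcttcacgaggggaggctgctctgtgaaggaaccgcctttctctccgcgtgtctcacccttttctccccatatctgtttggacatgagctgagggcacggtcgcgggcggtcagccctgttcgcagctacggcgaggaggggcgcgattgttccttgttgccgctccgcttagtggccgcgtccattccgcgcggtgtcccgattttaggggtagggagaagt
HMGCS1 and FADS2 have 2 listed starts each, of which the one with more matches is shown, or the first by position where these are equal.

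Library by library, both arms were at their highest in FSB. The mean log2(FPKM + 1) level of the 16 sterol enzymes was 5.24, 5.45 and 5.14 in F, 6.54, 6.64 and 6.18 in FSB, and 5.39, 5.51 and 5.62 in F_FSB. For the 10 fatty acid enzymes it was 5.47, 5.87 and 5.46 in F, 6.88, 6.89 and 6.496 in FSB, and 5.55, 5.44 and 5.77 in F_FSB. In both arms FSB replicate 3 was the lowest FSB culture and still above all 6 others. Summed FPKM went from 852 ± 110 in F to 2255 ± 394 in FSB and 998 ± 77.8 in F_FSB for the sterol enzymes. For the fatty acid enzymes the sum went from 648 ± 136 to 1896 ± 296 and 687 ± 128.

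By mean level, the balance of the 2 arms was nearly the same in F and FSB and lay more toward sterols in F_FSB. The sterol level minus the fatty acid level was -0.23, -0.42 and -0.32 in F, -0.34, -0.25 and -0.32 in FSB, and -0.16, 0.06 and -0.15 in F_FSB. F_FSB overlapped neither F nor FSB. The 2 arms changed by amounts that differed by 0.02 between FSB and F, by 0.22 between F_FSB and FSB and by 0.24 between F_FSB and F, each on the log2 scale as sterol minus fatty acid. As the median change of the sterol enzymes minus that of the fatty acid enzymes, these were 0.04, 0.01 and 0.27, so the second depends on how an arm is summarised. With the median level over the members in each library in place of the mean level, a measure that follows whichever gene is in the middle of its arm, they were 0.50, -0.33 and 0.17. These are descriptions with no test, since the members of an arm are not replicates.

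**Figure D5:**
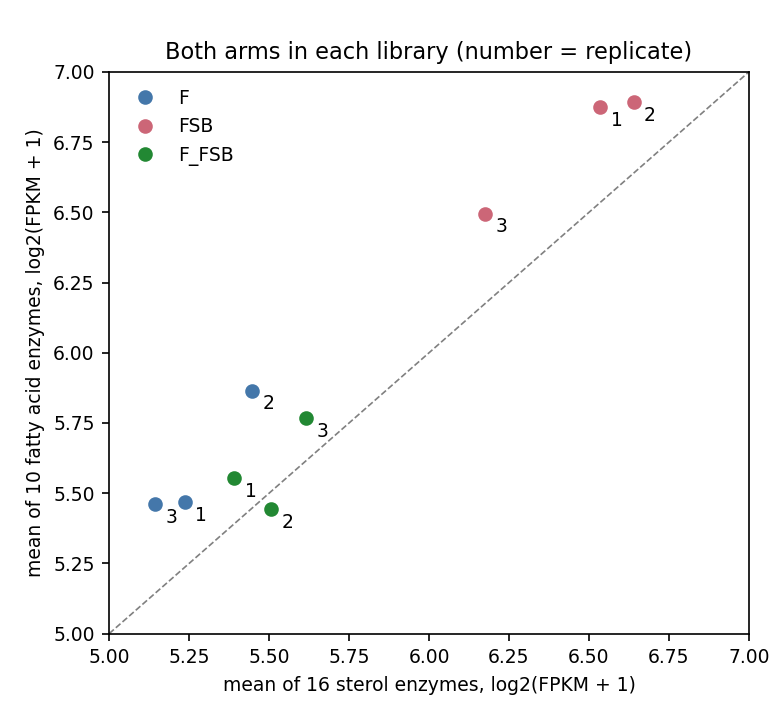
Mean log2(FPKM + 1) of the 16 sterol enzymes (x axis) against that of the 10 fatty acid enzymes (y axis), 1 point per library, numbered by replicate, with the line of equal levels dashed. The 3 FSB libraries lie at the upper right, between 6.18 and 6.64 on the x axis, and F_FSB replicate 2 is the one library below the line.

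Cells that had first been in FSB and then in F were close to cells kept in F throughout. Between F_FSB and F, 0 members were called higher or lower by limma. Of all genes tested, 1 was called (0.00757%, 0 higher and 0.00757% lower). At an unadjusted p under 0.05 there were 1195 genes, of which 1 was a member, TM7SF2. Libraries did not overlap for 6 members, all higher in F_FSB (PMVK, IDI1, EBP, TM7SF2, ACAT2 and STARD4), beside 13% of all genes tested. For these the log2 changes were 0.14, 0.25, 0.32, 0.72, 0.15 and 0.26. All 16 sterol enzymes had a change above 0, with a median of 0.20, beside 49.4% of all genes tested. The regulators had 4 of 8 above 0 (median 0.001) and the fatty acid enzymes 4 of 10 (median -0.08). With every library scaled to the same FPKM sum, which F_FSB replicate 2 and its 1 very high microRNA value affect, 11 of 16 sterol enzymes were above 0, beside 27.2% of all genes. Without F_FSB replicate 3 it was 13 of 16, and without F replicate 1 or F replicate 3 it was 15 of 16. The comparison cannot show that levels were equal: for SCD the 95% confidence interval ran from -0.55 to 0.94, and for HMGCS1 from -0.08 to 0.63.

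Replicates within a medium differed in a shared way. FSB replicate 3 was the lowest of the 3 FSB cultures for 28 of the 34 genes, beside 33.7% of all genes tested, and its median level over the members was 73.7% of the mean of the other 2, beside 102% for all genes. F replicate 2 was the highest F culture for 26 of 34, beside 29.8% of all genes. Without FSB replicate 3, 29 members rose and 2 fell in FSB, and 28 fell and 1 rose on withdrawal.

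Genes of the cell cycle moved in the same direction as the members. All 21 proliferation genes rose in FSB (median log2 change 1.06), beside 28.5% of all genes tested (median 0.14). All 21 fell on withdrawal (median -1.13), beside 28.2% of all genes tested (median -0.13). The replication helicase gene MCM7 went from 35.5 ± 9.91 to 103 ± 9.19 FPKM (log2 change 1.55, adjusted p = 0.000924), and the mitotic kinase gene AURKB from 19.5 ± 0.418 to 51.4 ± 14.02 FPKM (log2 change 1.32, adjusted p = 0.00128). FSB replicate 3 was the lowest FSB culture for 19 of the 21, beside 33.7% of all genes tested. Its median level over the 21 was 72.7% of the mean of the other 2, beside 102% for all genes. In F_FSB and F the order was different. F_FSB replicate 3 was the lowest culture for 20 of 21 proliferation genes, beside 45.8% of all genes tested. It was the highest for 20 of 34 members, beside 24.9%. F replicate 2 was the highest for 26 of 34 members but the lowest for 12 of 21 proliferation genes, beside 29.8% and 39.3%. F replicate 3 was the lowest for 17 of 34 members but the highest for 11 of 21 proliferation genes, beside 28.5% and 34.1%. The part of proliferation, and of the crest, mesenchymal, endothelial, pluripotency and muscle markers given above, in the changes of the members was not tested.

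Other genes of these pathways were looked at as lists, each to be read beside the shares of all genes tested: 28.5% higher and 13.4% lower in FSB, and 13.7% higher and 28.2% lower on withdrawal. Of 8 other sterol enzymes, 6 rose in FSB and 5 fell on withdrawal. LBR, a sterol reductase of the nuclear envelope, went from 24.1 ± 2.53 to 51.6 ± 3.46 FPKM (log2 change 1.07, adjusted p = 0.000259). MSMO1, singled out after its values were seen, rose from 85.1 ± 17.6 to 130 ± 24.1 FPKM (log2 change 0.61, adjusted p = 0.027). After withdrawal it stood at 115 ± 12.3 FPKM, a change that did not pass (-0.16, adjusted p = 0.499), as for TM7SF2. The F_FSB cultures of MSMO1 lay narrowly above its F cultures, with no overlap. That difference did not pass either (log2 change 0.45, adjusted p = 0.542). Of 10 genes that process SREBP or sense sterols, limma called 0 higher and 3 lower in FSB, with a median log2 change of -0.24 and 4 at an unadjusted p under 0.05. MBTPS1, the first of the Golgi proteases that release SREBP, fell from 58.7 ± 0.738 to 32.8 ± 0.588 FPKM (log2 change -0.82, adjusted p = 0.000122) and came back to 55.9 ± 2.02 FPKM in F_FSB (log2 change 0.75, adjusted p = 0.000185). On withdrawal 1 of the 10 rose and 1 fell, the latter PAQR3, which holds SREBP and SCAP at the Golgi (log2 change -0.61, adjusted p = 0.0068).

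Of 15 sterol uptake, storage and oxysterol genes, 6 rose and 3 fell in FSB, and 3 rose and 4 fell on withdrawal, beside 28.5% higher and 13.4% lower, then 13.7% higher and 28.2% lower, of all genes tested. The oxysterol receptor genes went opposite ways. NR1H3 (LXRα) rose from 1.35 ± 0.394 to 4.597 ± 0.226 FPKM (log2 change 1.27, adjusted p = 0.000414), and NR1H2 (LXRβ) fell from 10.5 ± 1.14 to 5.53 ± 0.0676 FPKM (log2 change -0.81, adjusted p = 0.000658). LRP1, an endocytic receptor for lipoproteins, fell from 154 ± 1.45 to 52.9 ± 9.104 FPKM (log2 change -1.54, adjusted p = 0.00042) and reached 107 ± 20.3 FPKM after withdrawal. STARD3NL, a late endosome protein, rose from 19.8 ± 0.918 to 33.7 ± 4.85 FPKM (log2 change 0.73, adjusted p = 0.00158).

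Further fatty acid synthesis and activation genes rose in 8 of 20 cases and fell in 1, and on withdrawal 7 fell and 1 rose. SLC25A1, the carrier that brings citrate out of mitochondria for ACLY, rose from 49.5 ± 5.56 to 92.01 ± 8.07 FPKM (log2 change 0.88, adjusted p = 0.000612). ACSL5, an acyl-CoA synthetase, rose from 0.0373 ± 0.00764 to 2.51 ± 0.685 FPKM (log2 change 1.74, adjusted p = 0.000258). At no more than 0.0456 FPKM in F and 0.259 in F_FSB, ACSL5 passed the filter on low values only through FSB. Its place among the 8 therefore adds no support. The second stearoyl-CoA desaturase, SCD5, fell from 3.37 ± 0.243 to 1.17 ± 0.371 FPKM (log2 change -1.02, adjusted p = 0.0282), opposite to SCD. On withdrawal HSD17B12, a reductase of chain elongation, fell from 84.1 ± 14.5 to 40.8 ± 2.24 FPKM (log2 change -1.01, adjusted p = 0.00113). Of 14 glycerolipid genes, 4 rose and 2 fell in FSB, and 2 rose and 4 fell on withdrawal, shares close to those of all genes tested in each direction. Among them PCYT2, of phosphatidylethanolamine synthesis, rose from 11.9 ± 1.81 to 31.8 ± 5.98 FPKM (log2 change 1.34, adjusted p = 0.00129). AGPAT2 rose by 0.53, and AGPAT3 and PCYT1A changed by -0.46 and -0.27 (adjusted p = 0.0127, 0.00658 and 0.0207).

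Of 19 fatty acid oxidation genes, 8 rose and 4 fell in FSB, beside 28.5% and 13.4% of all genes tested, and 5 rose and 8 fell on withdrawal, beside 13.7% and 28.2%. CPT1A, the carnitine transferase that gates entry of long chains into mitochondria, fell from 9.05 ± 3.26 to 0.335 ± 0.0788 FPKM in FSB (log2 change -2.86, SE 0.21, adjusted p = 0.000102) and returned to 12.5 ± 1.45 FPKM in F_FSB (log2 change 3.33, SE 0.21, adjusted p = 6.52e-05). ECI1, an isomerase of mitochondrial oxidation, rose from 6.48 ± 0.330 to 13.4 ± 1.67 FPKM (log2 change 0.94, adjusted p = 0.0019), and PPARA, a receptor that drives oxidation genes in liver, from 1.81 ± 0.429 to 4.68 ± 0.827 FPKM (log2 change 1.01, adjusted p = 0.00247). On withdrawal HADH and ACADM, enzymes of the mitochondrial cycle, fell by 0.92 and 0.84 on the log2 scale (adjusted p = 0.000678 and 0.00352). Of 15 glycolysis and hypoxia genes, 7 rose and 1 fell in FSB, and 1 rose and 3 fell on withdrawal. VEGFA fell from 26.6 ± 4.53 to 11.7 ± 0.775 FPKM (log2 change -1.10, adjusted p = 0.000655), and the hexokinase genes HK2 and HK1 rose by 1.33 and 1.00 (adjusted p = 0.00146 and 0.00262).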

How the data were processed

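Total RNA of 9 cultures was made into strand-specific SureSelect libraries. The authors deposited FPKM by gene from Cufflinks, per the file headers. TopHat2 2.0.12, Cufflinks 2.1.1 and GRCh37 are named in the submitters' processing notes. The options, and whether strand was used, are not given in the sources available, so overlapping and antisense loci and near-identical copies are uncertain. The tables hold no counts, so depth is unknown and precision rests on the spread of 3 cultures per group.

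The 9 tables were joined by locus, and 95 loci not marked OK in every library were left out. A gene was tested if 3 or more libraries had at least 1 FPKM. The test was limma (3.58.1, R 4.3.3) on log2(FPKM + 1), with its trend option, a pseudocount of 1, all libraries in 1 fit of group means, two-sided, Benjamini-Hochberg adjusted over 13216 genes at 0.05. It was also run on simulated data. Starts count from 0 in the files and are given 1-based. Python 3.11.15, pandas 2.3.3 and matplotlib 3.10.9 did the rest.

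The members and lists were chosen with earlier results of these data known. Values in every library are given for members called in FSB minus F or F_FSB minus FSB with 1 of the 4 largest changes of their arm, for members called against their arm's direction, and for members called in no comparison. Of other lists, the 2 called genes of smallest adjusted p per direction are named in FSB minus F, with a few from F_FSB minus FSB. TM7SF2, the 6 genes whose promoters are printed, and MSMO1 of the other sterol enzymes were chosen after their values were seen. Other members are given by group means or folds. Promoter windows of 250 bases are from RefSeq (GRCh38.p14), matched by symbol. ACAT2, FASN, FDFT1 and SQLE are not in that table. Some genes that the rule takes, and some further genes of these pathways, are not reported here. Alternatives tried were other pseudocounts, filters and scalings, limma without a trend or on 2 groups, a replicate block, and each library left out in turn.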

Additional observations from a re-analysis of the deposited data

How the results depend on the processing

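Over 19 alternatives, no called member changed direction. TM7SF2, whose change between F_FSB and FSB did not pass, turned from -0.12 to 0.032 with median-ratio scaling and to 0.023 with quantile normalization. Between FSB and F, members called ranged from 25 to 31 over the fits without 1 library. Sterol enzymes called lower (1, PMVK) became 0 with the same FPKM sum and ranged from 0 to 1 without 1 library. Regulators called lower (0) became 1 with median ratios or quantile normalization and ranged from 0 to 1 without 1 library. Between F_FSB and FSB, regulators called higher (0) became 1 with median ratios or quantile normalization and ranged from 0 to 1 without 1 library. Regulators called lower (4) became 2 with no filter, median ratios, quantile normalization or a fit of only the 2 groups, and ranged from 2 to 4 without 1 library. The sterol minus fatty acid difference, with each library's median level over members, was 0.502 for FSB minus F against 0.017 with the mean level, and -0.331 for F_FSB minus FSB against 0.221. Taken between the arms' median changes, an alternative chosen after seeing the data, it was 0.012 for F_FSB minus FSB. Between F_FSB and F, the 1 gene called became 0 with no filter, and the count ranged from 0 to 77 without 1 library, the 77 being without F replicate 1. Members called stayed at 0 there in all 19 alternatives. Of 28 members whose libraries overlapped in that comparison, 15 changed sign in at least 1 of 19 alternatives. The causes of these differences were not tested. Of calls in FSB minus F, 68.0% were higher, against 49.6% with median ratios, 53.2% with quantile normalization and 62.1% with the same FPKM sum. Without depth in the files, counting error could not be separated from the spread between cultures.

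The groups share replicate numbers, but the labels do not say that a number marks a shared culture. Deviations of same-numbered libraries correlated at -0.136 to 0.292 over 9 pairs, and 5 of 18 libraries set against another group correlated best with their own number, so the numbers were not taken as pairing. With the replicate number as a block, 3261 genes were higher and 1581 lower in FSB than in F (members 26 and 1), 1659 higher and 3324 lower in F_FSB than in FSB (members 1 and 26), and the count for F_FSB minus F became 0.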
